A study of Mus musculus with 6 samples.

Results

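Forkhead genes encode transcription factors that share a winged-helix DNA-binding domain and are named by subfamily letter, from Foxa to Foxs. All gene symbols made of Fox, a subfamily letter and a number were taken from the deposited table, which gave 44 forkhead genes of 23364 gene symbols, in 19 subfamilies. The table lists them as 52 of its 31055 transcripts, and the values of the transcripts of a gene were summed. Another 3 symbols that start with Fox, Foxl2os, Foxred1 and Foxred2, do not have this form and were not members.

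RNA-seq libraries of 2 primary mouse cell types were compared, with 3 libraries each. Osteoblasts, the bone-forming cells, came from the calvaria (the skull roof) by Liberase TM digestion, were sorted for green fluorescent protein (GFP), carry the genotype label Sp7 positive and are described as Sp7-GFP. Chondrocytes, the cartilage cells, came from rib cartilage by PRONASE and Collagenase D digestion and carry the genotype label WT, with no sort named. Mice of both groups were C57BL/6 at P1 (postnatal day 1), and no treatment was given. Cell type, skeletal site, sorting, genotype and enzyme all went with the group and cannot be told apart. The labels do not say whether replicates came from separate animals, so p-values measure the spread between these libraries only.

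In each forkhead protein a single helix of the winged-helix domain lies in the major groove of DNA and reads the core site. FoxA proteins are pioneer factors that open compacted chromatin, FoxC proteins pattern somites and skeletal mesenchyme, FoxO proteins move out of the nucleus when phosphorylated by AKT, and FoxM1 drives mitotic genes. In the skeleton, Foxa2 and Foxa3 are known from maturing cartilage of the growth plate, Foxc1 and Foxc2 from the skull and the vertebral column, FoxO factors from osteoblasts and cartilage under oxidative stress, and Foxp1, Foxp2 and Foxp4 from bone formed on a cartilage template.

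The 24 bases that encode the DNA-reading helix were located in GENCODE M21 transcripts by the peptide pattern NxIRHxLS. Any residue was allowed at x, and V in place of I. A single match was found for 37 of the 44 genes. Capitals mark the 7 bases that were identical in all 37. The search pattern itself fixes these 7 bases, so their identity is not a result, and every pair of genes shares them. Sequences are printed for 9 of the genes whose levels differed between the cell types, chosen across subfamilies on either side.
Foxa2: AActccaTccGcCActctcTctcc
Foxa3: AActccaTccGgCAttcgcTgtcc
Foxc1: AAcagcaTacGgCAcaaccTctcg
Foxd1: AAcagcaTccGtCAcaaccTgtcg
Foxl2: AAtagcaTccGcCAcaaccTcagc
Foxs1: AAcagcaTccGcCAtaaccTgtct
Foxk2: AAttcaaTtcGcCAcaatcTctct
Foxm1: AActctaTtcGtCAcaaccTttct
Foxo3: AActccaTccGgCAcaaccTgtcc
Against Foxa3, which was higher in chondrocytes, Foxa2 and Foxo3 each shared 20 of the 24 bases. Foxs1 shared 17, Foxd1 shared 16, Foxm1 and Foxc1 shared 15 each, Foxk2 shared 14 and Foxl2 shared 13. Foxd1, higher in osteoblasts, and Foxc1, higher in chondrocytes, thus shared nearly the same number of bases with Foxa3.

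The values are RPKM, reads scaled to transcript length and library depth, so levels can be set side by side between genes. The table adds 0.0001 to every value, and a gene at that floor had no reads. From the steps between low values, 1 RPKM in a transcript of 2 kb stood for 53.9 to 71.6 reads per library. Osteoblast markers were called higher in osteoblasts for 8 of 8 genes, with summed RPKM of 20531 to 22301 in osteoblasts and 2277 to 7779 in chondrocytes, highest in chondrocyte replicate 3. Chondrocyte markers were called higher in chondrocytes for 8 of 8, with sums of 73.0 to 89.2 in osteoblasts and 30751 to 54104 in chondrocytes. Sp7, the labelled osteoblast gene, was at 108 to 134 RPKM in osteoblasts and 0.911 to 2.31 in chondrocytes. Chondrocyte replicate 2 stood apart from the other chondrocyte libraries in several forkhead genes and in mitotic genes, so values without it are given below. In these bulk libraries fewer cells of a type and less RNA per cell cannot be told apart.

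Of the 44 forkhead genes, 21 had at least 1 RPKM in at least 3 of the 6 libraries and were tested. A total of 19 had a mean of at least 1 RPKM in osteoblasts, 19 in chondrocytes and 16 in both. Of the 21, Foxa2, Foxa3, Foxf1, Foxl2 and Foxs1 entered the test only through the cell type in which they were high, and so had to differ. Limma was fitted on log2(RPKM + 1) over all 11218 genes that passed, and a gene was called at an adjusted p (Benjamini-Hochberg) under 0.05. On this scale the change of low genes is understated, and positive differences mean osteoblasts were higher.

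Among the 21 tested forkhead genes 6 were called higher in osteoblasts, beside 55.5% of all tested genes. They were Foxd1, Foxk2, Foxl2, Foxm1, Foxp2 and Foxs1. Another 10 were called higher in chondrocytes, beside 13.5% of all tested genes. They were Foxa2, Foxa3, Foxc1, Foxc2, Foxf1, Foxj3, Foxk1, Foxo1, Foxo3 and Foxo4. Foxj2, Foxn2, Foxn3, Foxp1 and Foxp4 were not called. The libraries of the cell types did not overlap for these 16 genes, with 6 lying higher in osteoblasts, beside 60.4% of all tested genes, and 10 higher in chondrocytes, beside 15.3%. As shares of the 21, 28.6% were higher in osteoblasts and 47.6% in chondrocytes. The median difference of the tested forkhead genes was -0.40, and that of all tested genes was 0.43.

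That median of all genes lay above 0, and median-of-ratios scaling, which sets libraries level by a typical gene, moved it to 0.06. Of all tested genes 33.6% were then higher in osteoblasts and 28.3% in chondrocytes. Of the forkhead genes 5 were then called higher in osteoblasts and 13 in chondrocytes. Foxm1 lost its call, and Foxn3, Foxp1 and Foxp4 gained one on the chondrocyte side.

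**Figure D1:**
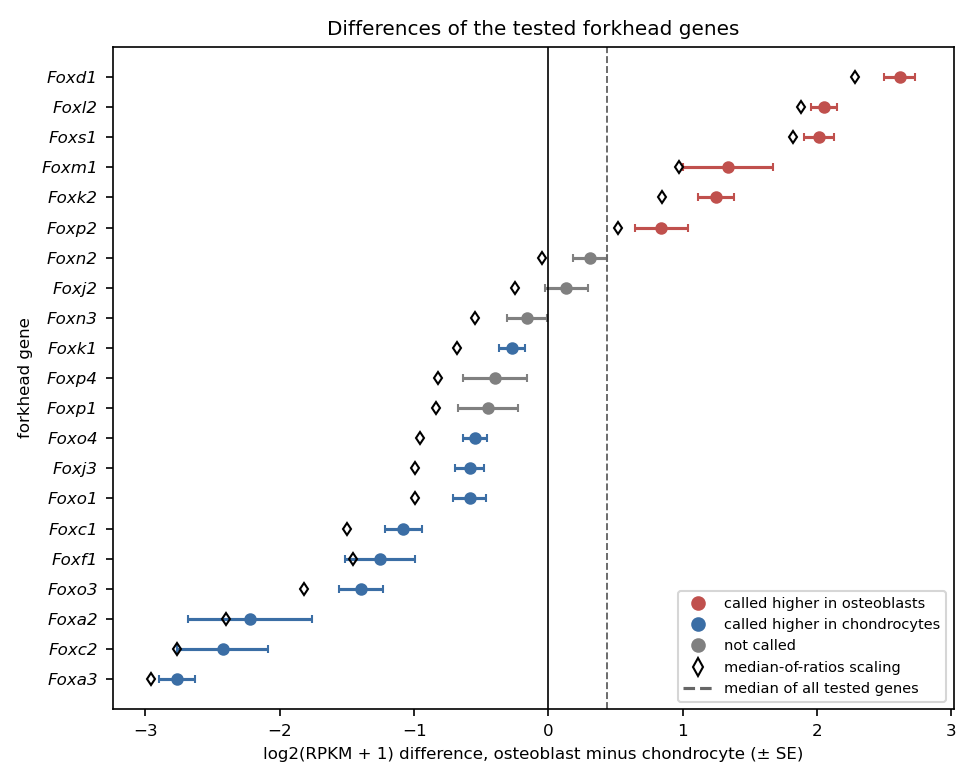
Differences of the 21 tested forkhead genes (rows) on the log2(RPKM + 1) scale (horizontal axis), osteoblast minus chondrocyte, with the standard error as bars and 3 libraries per group. Points right of 0 are higher in osteoblasts, diamonds give median-of-ratios scaling, and the dashed line is the median of all tested genes at 0.43. Foxd1 lies farthest to the right and Foxa3 farthest to the left.

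The summed level of all 44 genes was 166, 152 and 150 RPKM in osteoblasts and 239, 190 and 220 in chondrocytes. All chondrocyte libraries lay above all osteoblast libraries. The means were 156 ± 8.41 and 216 ± 24.6 RPKM (SD, n = 3), and the exact two-sided permutation p of 0.1 is the smallest that 3 against 3 libraries allow. FoxO genes gave the largest part of the sum in both cell types, 23.0% in osteoblasts and 34.8% in chondrocytes. FoxC genes made up 9.08% in osteoblasts and 19.6% in chondrocytes, whereas FoxD genes made up 8.79% and 0.846%. FoxK genes gave 16.3% of the osteoblast sum and 8.77% of the chondrocyte sum.

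Summed by letter, 13 of the 19 subfamilies reached a mean of 0.1 RPKM in a cell type. In 9 of them the libraries of the cell types did not overlap, and each such comparison had an exact permutation p of 0.1 (adjusted p 0.144 over the 13). Foxa, Foxc, Foxf and Foxo were higher in every chondrocyte library, and Foxd, Foxk, Foxl, Foxm and Foxs in every osteoblast library. Among all tested genes, taken singly, 60.4% lay higher in every osteoblast library and 15.3% in every chondrocyte library, so a lack of overlap was common. Foxc summed to 14.2 ± 1.87 RPKM in osteoblasts and 42.4 ± 10.5 in chondrocytes (SD, n = 3), a ratio of 2.99. Foxo summed to 35.9 ± 3.88 and 75.3 ± 10.3 RPKM, a ratio of 2.10. Foxd summed to 13.7 ± 1.70 and 1.83 ± 0.199 RPKM, 7.50 times higher in osteoblasts. Foxk was 1.34 times higher in osteoblasts, and its log2 ratio of sums was -0.02 under median-of-ratios scaling. Foxj, Foxn, Foxp and Foxq overlapped between the cell types, with exact permutation p of 0.2, 1, 0.4 and 0.2.

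**Figure D2:**
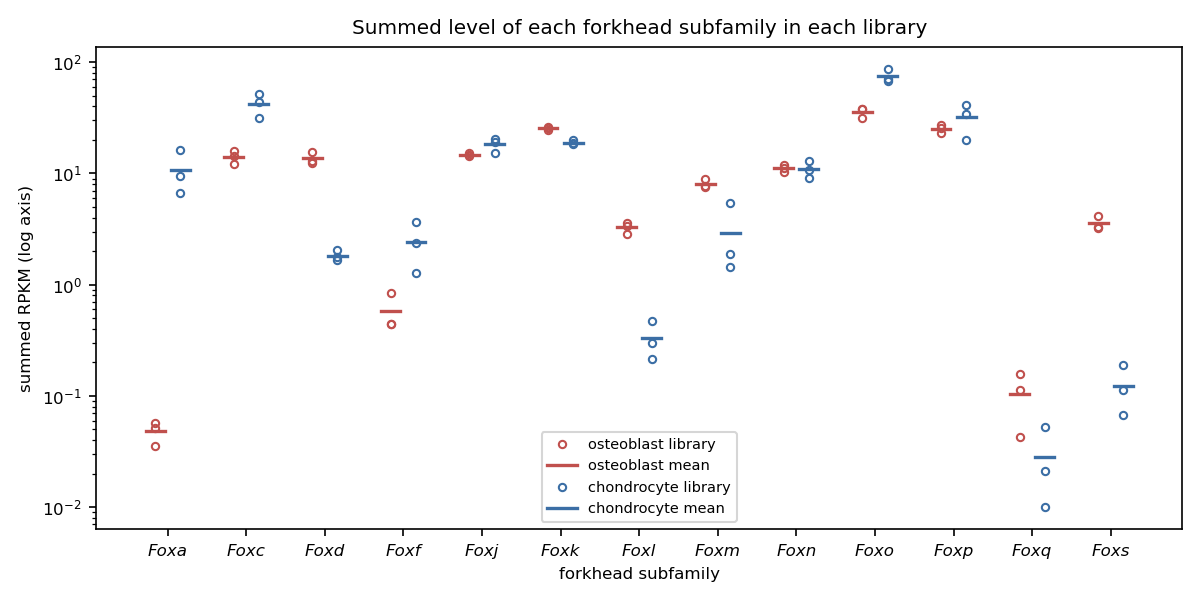
Summed RPKM (vertical log axis) of the 13 forkhead subfamilies with a mean of at least 0.1 RPKM in a cell type, one circle per library and a line at each group mean. The Foxa sum is under 0.1 in all osteoblast libraries and over 6 in all chondrocyte libraries, while Foxd, Foxl and Foxs lie the other way round.

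The FoxA factors were first known from liver and notochord. With all 6 libraries Foxa3 had the largest chondrocyte-side log2 difference of the tested forkhead genes, and that of Foxa2 was smaller than that of Foxc2. Foxa3 was at 0.0284, 0.0292 and 0.0182 RPKM in osteoblasts and 7.04, 6.20 and 4.84 in chondrocytes. Foxa2, which also patterns the floor plate and foregut, was at 0.0136, 0.0280 and 0.0175 RPKM in osteoblasts and 2.43, 10.0 and 1.83 in chondrocytes. The osteoblast values rest on 1 or 2 reads per library for each gene, so both genes were near the detection limit there, and no fold is given. In chondrocytes Foxa3 varied little between libraries, whereas Foxa2 was highest in replicate 2. The log2 difference was -2.76 ± 0.13 for Foxa3 (SE, limma adjusted p 4.72e-06) and -2.22 ± 0.46 for Foxa2 (limma adjusted p 0.00400). Without chondrocyte replicate 2 the chondrocyte mean of Foxa2 fell from 4.75 to 2.13 RPKM, and its log2 difference was -1.61. Foxa3 was then at -2.74, a smaller difference than that of Foxc2 at -2.85. Foxa1, the remaining member, had at most 1 read in any library.

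Col10a1, the collagen of hypertrophic cartilage, was highest in the same chondrocyte library as Foxa2. It was at 1.07, 0.265 and 0.177 RPKM in osteoblasts and 19.9, 58.4 and 3.32 in chondrocytes. Ihh, the hedgehog ligand of prehypertrophic chondrocytes, was at 5.07, 3.90 and 6.24 RPKM in osteoblasts and 1.35, 6.93 and 1.18 in chondrocytes, again highest in chondrocyte replicate 2. Within chondrocytes, replicate 2 was thus the highest library for Foxa2, Col10a1 and Ihh, and Foxa3 at 6.20 RPKM was the middle value there. Replicate 2 was also the highest chondrocyte library for the chondrocyte markers Col2a1, Acan, Col9a1, Matn1, Hapln1 and Matn3. Matn1 was at 3.12, 46.6 and 3.10 RPKM in chondrocytes. The other markers of that list, Sox9 and Comp, were highest in chondrocyte replicate 1. The peak in replicate 2 was therefore not particular to Col10a1 and Ihh. Whether the stage of the cartilage cells plays a part in the Foxa2 difference was not tested.

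The promoters of the FoxA pair and of Foxd1, a gene higher in osteoblasts, are printed from RefSeq (GRCm38.p6), 250 bases before to 50 bases after the start. Capitals mark the GC box GGGCGG, on either strand, a motif bound by several Sp-family zinc fingers. Whether Sp7 binds in these windows was not tested.
Foxa3, chr7:19023490-19023789, minus strand: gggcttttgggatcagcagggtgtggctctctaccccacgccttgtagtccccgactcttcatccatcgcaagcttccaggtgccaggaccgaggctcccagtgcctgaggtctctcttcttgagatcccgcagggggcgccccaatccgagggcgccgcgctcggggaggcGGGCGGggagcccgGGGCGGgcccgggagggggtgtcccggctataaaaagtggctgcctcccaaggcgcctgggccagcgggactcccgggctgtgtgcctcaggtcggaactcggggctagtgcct
Foxa2, chr2:148046920-148047219, minus strand: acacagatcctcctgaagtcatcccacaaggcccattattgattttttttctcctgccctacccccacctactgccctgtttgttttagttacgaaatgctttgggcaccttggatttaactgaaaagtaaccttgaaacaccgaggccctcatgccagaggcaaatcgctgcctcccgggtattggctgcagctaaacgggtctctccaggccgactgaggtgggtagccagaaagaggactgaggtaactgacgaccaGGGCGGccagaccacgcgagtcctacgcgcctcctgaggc
Foxd1, chr13:98353995-98354294, plus strand: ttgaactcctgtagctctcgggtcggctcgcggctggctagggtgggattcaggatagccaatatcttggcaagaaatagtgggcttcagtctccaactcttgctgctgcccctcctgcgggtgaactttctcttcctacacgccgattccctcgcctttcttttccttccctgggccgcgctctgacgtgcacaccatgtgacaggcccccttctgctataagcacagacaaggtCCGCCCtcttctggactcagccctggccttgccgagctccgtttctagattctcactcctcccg
The Foxa3 window held 2 GC boxes, and the Foxa2 and Foxd1 windows held 1 each. RefSeq promoters were matched for 28 of the 44 genes, and where a gene had several windows the one nearest to the start of its listed transcript was used. A GC box was present in 20 of these 28 windows (71.4%), against 35.7% of all 32851 promoter windows of the same length. With any window of a gene counted, 21 genes had one. The forkhead core GTAAACA, searched on both strands, was in 1 of the 28 (3.57%, against 3.65% of all windows), and the homeodomain core TAATTA in 2 (7.14%, against 5.29%). None of the printed windows held either of these. The forkhead windows had a median of 22 CpG dinucleotides and 62.8% GC, against 7 and 52.7% over all windows. A match describes letters in a window and is not a measured site.

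FoxC factors, needed for the somites, the vascular system and the skull, were higher in chondrocytes as a pair. Foxc1 was at 13.9, 12.4 and 10.9 RPKM in osteoblasts and 32.2, 24.1 and 26.1 in chondrocytes. Foxc2, which acts in the cartilage primordia of the vertebrae, was at 2.08, 1.89 and 1.33 RPKM in osteoblasts and 19.9, 7.19 and 17.9 in chondrocytes. Neither gene overlapped between the cell types, and chondrocyte replicate 2 was the lowest chondrocyte library for both. The 8 markers of fibroblasts and perichondrium summed to 604 to 1055 RPKM in osteoblasts and 883 to 3052 in chondrocytes, lowest among chondrocytes in replicate 2. Of the 7 tested, 3 were called in each direction, 42.9% each, beside 55.5% of all tested genes higher in osteoblasts and 13.5% in chondrocytes. Of this list Thbs4, Prg4 and the tendon gene Tnmd were those higher in chondrocytes. Scx, Dpt and Ly6a were those higher in osteoblasts. Their means were 53.1, 27.3 and 15.5 RPKM in osteoblasts and 22.0, 0.200 and 1.70 in chondrocytes. Postn, the most abundant of the list, was not called. Tnmd was at 23.2, 37.9 and 17.5 RPKM in osteoblasts and 106, 52.3 and 341 in chondrocytes. The part of such cells in the forkhead differences was not tested. Mean Foxc1 was 2.21-fold higher in chondrocytes, with a log2 difference of -1.08 ± 0.14 (SE, limma adjusted p 3.66e-04). Mean Foxc2 was 8.46-fold higher in chondrocytes, with a log2 difference of -2.43 ± 0.34 (SE, limma adjusted p 6.26e-04).

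Foxf1, a factor of lateral mesoderm and of lung endothelium, was at 0.238, 0.635 and 0.259 RPKM in osteoblasts and 3.60, 1.24 and 2.36 in chondrocytes. All chondrocyte libraries were above all osteoblast libraries, with replicate 2 the lowest of the chondrocytes. The log2 difference was -1.25 ± 0.26 (SE, limma adjusted p 0.00373), and the mean was 6.36-fold higher in chondrocytes. The 9 endothelial markers summed to 2.44 to 5.82 RPKM in osteoblasts and 4.97 to 9.14 in chondrocytes, highest in chondrocyte replicate 3. Pecam1 and Cdh5, which define endothelium, were low but above 0 in all libraries. The part of endothelial cells in the Foxf1 difference was not tested.

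Some forkhead genes lie side by side in the genome, and RefSeq (GRCm38.p6) places Foxc2 next to Foxl1 on chromosome 8, with Foxf1 beside them across 1 other coding gene. On chromosome 13 Foxq1, Foxf2 and Foxc1 are neighbours, and on chromosome 4 Foxd2 and Foxe3. Foxl1, known from gut mesenchyme, was at 0.127, 0.0702 and 0.0501 RPKM in osteoblasts and 0.472, 0.191 and 0.301 in chondrocytes, under the filter. Fitted with no filter on low values, where 11.0% of 17938 genes were called higher in chondrocytes, Foxl1 differed by -0.28 (limma adjusted p 0.0218). The 3 forkhead genes of chromosome 8 were thus all higher in chondrocytes. The chromosome 13 neighbours were not alike. Foxf2, active in palate and limb mesenchyme, was at 0.207, 0.213 and 0.188 RPKM in osteoblasts and 0.0252, 0.0503 and 0.0119 in chondrocytes, on 1 to 4 reads per chondrocyte library. With no filter, where 41.9% of genes were called higher in osteoblasts, Foxf2 differed by 0.22 (limma adjusted p 4.20e-04), opposite to its neighbour Foxc1. Foxq1, an epithelial factor, was at 0.113, 0.0424 and 0.158 RPKM in osteoblasts and 0.0531, 0.0213 and 0.0100 in chondrocytes, which overlap.

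Among 14 regulators of sclerotome and early cartilage, the tissue in which FoxC factors act, 8 were tested. Calls were 5 on the chondrocyte side (62.5% of the 8, beside 13.5% of all tested genes) and 1 on the osteoblast side (12.5%, beside 55.5%), and the median was -0.85. With no filter 13 were fitted, with a median of -0.03. Calls were then 4 higher in osteoblasts, beside 41.9% of all 17938 genes fitted, and 5 higher in chondrocytes, beside 11.0%. The 3 that joined on the osteoblast side were Pax1, Pax9 and Tbx18, somite genes named here after their values were seen. Pax1, a sclerotome gene, was at 0.710, 1.02 and 0.533 RPKM in osteoblasts and 0.0114, 0.0113 and 0.0423 in chondrocytes (limma adjusted p 0.0011). Pax9 was at 0.187 to 0.392 RPKM in osteoblasts and 0.0109 to 0.0347 in chondrocytes, and Tbx18 at 0.628 to 0.664 and 0.0128 to 0.0446 (limma adjusted p 0.0034 and 6.2e-05). All 3 lay higher in every osteoblast library, opposite to Foxc1 and Foxc2. Nkx3-2 of the same list lay higher in every chondrocyte library. It was at 0.0001 to 0.129 RPKM in osteoblasts and 0.213 to 1.59 in chondrocytes, and was not called with no filter (limma adjusted p 0.0678). Sox9, the master regulator of cartilage, was at 4.31 ± 1.61 RPKM in osteoblasts and 143 ± 44.4 in chondrocytes (SD, n = 3), with a log2 difference of -4.76 (limma adjusted p 1.12e-05). Its cofactors Sox5 and Sox6 differed by -2.92 and -0.95 (limma adjusted p 1.45e-06 and 3.44e-04). Gli1, a readout of hedgehog signalling, was higher in osteoblasts, at 27.0 ± 0.377 against 7.93 ± 1.83 RPKM (log2 difference 1.67, limma adjusted p 7.23e-05). Gli2 and Gli3 were higher in chondrocytes, with differences of -0.80 and -0.91 (limma adjusted p 4.34e-04 and 3.43e-04). Meox1 and Meox2, somite homeobox genes, were not called, with differences of 0.02 and 0.46. Sox9 was also one of the chondrocyte markers.

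Foxd1, a stromal factor known from the kidney and the retina, had the largest osteoblast-side log2 difference of the family at the pseudocount of 1. At a pseudocount of 0.1 those of Foxl2 and Foxs1 were larger, 4.93 and 4.05 against 3.27 for Foxd1. It was at 14.6, 11.8 and 11.6 RPKM in osteoblasts and 1.23, 1.11 and 1.31 in chondrocytes. The libraries of each cell type lay close together, and the mean was 10.4-fold higher in osteoblasts. The log2 difference was 2.62 ± 0.12 (SE, limma adjusted p 3.59e-06). Its paralog Foxd2, known from facial and kidney mesenchyme, was at 1.08, 1.11 and 0.932 RPKM in osteoblasts and 0.556, 0.533 and 0.712 in chondrocytes, just under the filter. With no filter Foxd2 differed by 0.35 (limma adjusted p 0.0117). Foxd3, a neural crest factor, had at most 3 reads in any library, and Foxd4 stayed under 0.1 RPKM.

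Foxl2, best known from the ovary and the eyelid mesenchyme, was at 3.48, 3.27 and 2.82 RPKM in osteoblasts. In chondrocytes replicates 1 and 3 were at the floor, and replicate 2 was at 0.0236 RPKM. The osteoblast values stand on 247 to 393 reads per library and the chondrocyte value on 2.58 reads, so no fold is given. The log2 difference was 2.05 ± 0.10 (SE, limma adjusted p 4.51e-06). Foxl2os, transcribed from the opposite strand beside Foxl2, was at 1.59, 1.96 and 1.77 RPKM in osteoblasts and at the floor in all chondrocyte libraries. The labels do not say whether counting used strand, so reads of Foxl2 and Foxl2os where they overlap cannot be told apart.

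Foxs1, known from sensory neurons of the embryo and from pericytes, was at 4.11, 3.21 and 3.33 RPKM in osteoblasts and 0.113, 0.0680 and 0.191 in chondrocytes. All osteoblast libraries exceeded 3 RPKM and all chondrocyte libraries were below 1. The mean was 28.6-fold higher in osteoblasts, on 2.99 to 8.96 reads per chondrocyte library. The log2 difference was 2.01 ± 0.11 (SE, limma adjusted p 8.95e-06). Neural and Schwann markers summed to 7.26 to 9.46 RPKM in osteoblasts and 1.62 to 3.06 in chondrocytes. Tubb3 made up most of the osteoblast sum. The part of such cells in the Foxs1 difference was not tested.

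**Figure D3:**
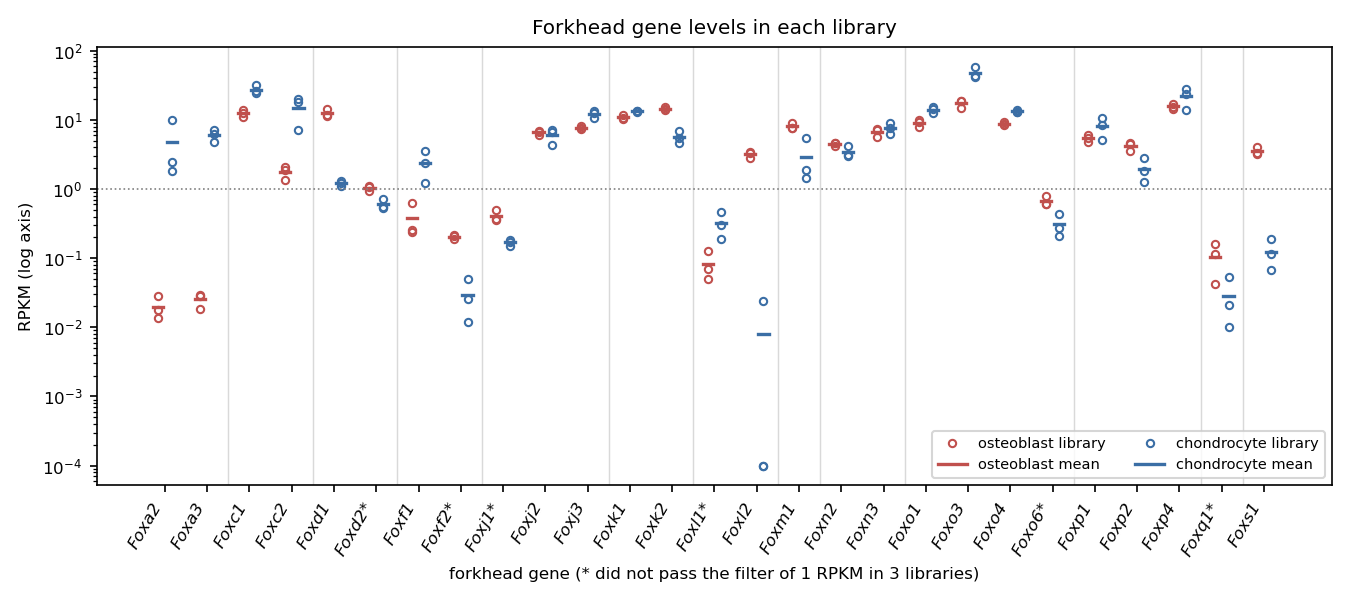
RPKM (vertical log axis) in each library of the 21 tested forkhead genes and the 6 others with a mean of at least 0.1 RPKM (starred), with group means as lines. The dotted line is 1 RPKM, and points at the bottom are values at the table floor of 0.0001. Foxd1, Foxl2 and Foxs1 lie higher in all osteoblast libraries, and Foxa2, Foxa3 and Foxc2 in all chondrocyte libraries.

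FoxO factors turn on genes of stress resistance, cell-cycle exit and atrophy, and growth factor signalling through AKT holds them in the cytoplasm. Foxo3 was the forkhead gene with the highest mean level in both cell types. It was at 18.5, 14.7 and 19.0 RPKM in osteoblasts and 58.3, 42.7 and 41.6 in chondrocytes, with no overlap. Its mean was 2.74-fold higher in chondrocytes, with a log2 difference of -1.39 ± 0.16 (SE, limma adjusted p 2.36e-04).

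Foxo1, the main FoxO target of insulin signalling, was at 9.33, 7.83 and 9.87 RPKM in osteoblasts and 15.2, 14.5 and 12.4 in chondrocytes. Foxo4 was at 9.39, 8.31 and 8.80 RPKM in osteoblasts and 13.2, 13.7 and 13.1 in chondrocytes. Both were higher in every chondrocyte library by similar amounts. The mean was 1.56-fold higher for Foxo1 (log2 difference -0.59 ± 0.12 SE, limma adjusted p 0.00363) and 1.51-fold higher for Foxo4 (-0.55 ± 0.09 SE, limma adjusted p 0.00119). Foxo6, which is mostly neuronal, was low and went the other way. It was at 0.798, 0.598 and 0.615 RPKM in osteoblasts and 0.270, 0.211 and 0.440 in chondrocytes, and with no filter it differed by 0.36 (limma adjusted p 0.0165).

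Of 24 regulators that act on FoxO proteins (among them kinases, 14-3-3 proteins, ubiquitin ligases, acetyltransferases, deacetylases and a nuclear exporter), all were tested. A total of 10 were called higher in osteoblasts (41.7%, beside 55.5% of all tested genes), 6 higher in chondrocytes (25.0%, beside 13.5%) and 8 neither way, with a median of 0.18. Skp2, a ubiquitin ligase subunit that targets Foxo1, and Ywhag, a 14-3-3 protein that binds phosphorylated FoxO, differed by 1.66 and 1.43 (limma adjusted p 1.38e-04 and 4.55e-05). Sgk1, a kinase that phosphorylates FoxO proteins, was higher in chondrocytes at 33.6 ± 8.34 against 8.82 ± 1.83 RPKM (log2 difference -1.81, limma adjusted p 2.14e-04). The most abundant uncalled members were the 14-3-3 genes Ywhaq and Ywhaz, with differences of -0.05 and 0.25. Under median-of-ratios scaling the counts turned to 5 higher in osteoblasts and 13 higher in chondrocytes, beside 33.6% and 28.3% of all tested genes.

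Of 24 genes known as FoxO targets 19 were tested, and 8 were called higher in osteoblasts (42.1%, beside 55.5% of all tested genes) and 7 in chondrocytes (36.8%, beside 13.5%), with a median of -0.02. Under median-of-ratios scaling 4 were called higher in osteoblasts and 10 in chondrocytes, beside 33.6% and 28.3% of all tested genes. Cdkn1a, a cyclin-dependent kinase inhibitor, was at 251 ± 15.8 RPKM in osteoblasts and 45.7 ± 19.0 in chondrocytes (SD, n = 3), with a log2 difference of 2.51 (limma adjusted p 1.84e-04). Bbc3, a pro-apoptotic BH3-only gene, differed by 2.50 (limma adjusted p 5.85e-06). Gadd45a, a stress and repair gene, and Klf2, a zinc-finger factor, were higher in chondrocytes, with differences of -1.94 and -1.90 (limma adjusted p 0.00173 and 6.08e-05). The most abundant uncalled members were Gadd45b and Sesn3, with differences of -0.76 and -0.39. Many of these targets also answer to other factors.

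Foxm1 is made in dividing cells and activates genes of the G2 phase and mitosis. It was at 7.64, 8.90 and 7.61 RPKM in osteoblasts and 1.45, 5.46 and 1.89 in chondrocytes. The libraries did not overlap, but chondrocyte replicate 2 lay closer to the osteoblasts than to the other chondrocytes. Its mean was 2.75-fold higher in osteoblasts, with a log2 difference of 1.34 ± 0.34 (SE, limma adjusted p 0.00932). Without chondrocyte replicate 2 the mean was 4.82-fold higher in osteoblasts, with a log2 difference of 1.76. Under median-of-ratios scaling the difference was 0.97 and the call was lost (limma adjusted p 0.0742).

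All 19 mitotic genes known to depend on Foxm1 were tested, and 15 were called higher in osteoblasts (78.9%, beside 55.5% of all tested genes) and 0 in chondrocytes (beside 13.5%), with a median of 1.54. Their summed RPKM was 180, 218 and 188 in osteoblasts and 32.6, 139 and 43.9 in chondrocytes, with the same chondrocyte library high as for Foxm1. Birc5, which encodes survivin, and the mitotic kinase Plk1 differed by 2.02 and 1.97 (limma adjusted p 0.0120 and 0.00696). The cyclins Ccna2 and Ccnb1 differed by 1.83 and 1.82 (limma adjusted p 0.0185 and 0.0164). The most abundant uncalled members, the proliferation marker Mki67 and the kinase Nek2, differed by 1.26 and 0.74 (limma adjusted p 0.0666 and 0.166). Without chondrocyte replicate 2 all 19 were called. The count fell to 7 without osteoblast replicate 2, 9 without osteoblast replicate 3, 8 without chondrocyte replicate 1 and 7 without chondrocyte replicate 3. In the same order 5344, 5699, 5918 and 6247 of all 11218 tested genes were called higher in osteoblasts. In each of these settings the mitotic share was smaller than that of all tested genes. Under median-of-ratios scaling the mitotic count was 5 of the 19, a smaller share than the 33.6% of all tested genes then called higher in osteoblasts. Skp2 belongs to this list and to that of the FoxO regulators.

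**Figure D4:**
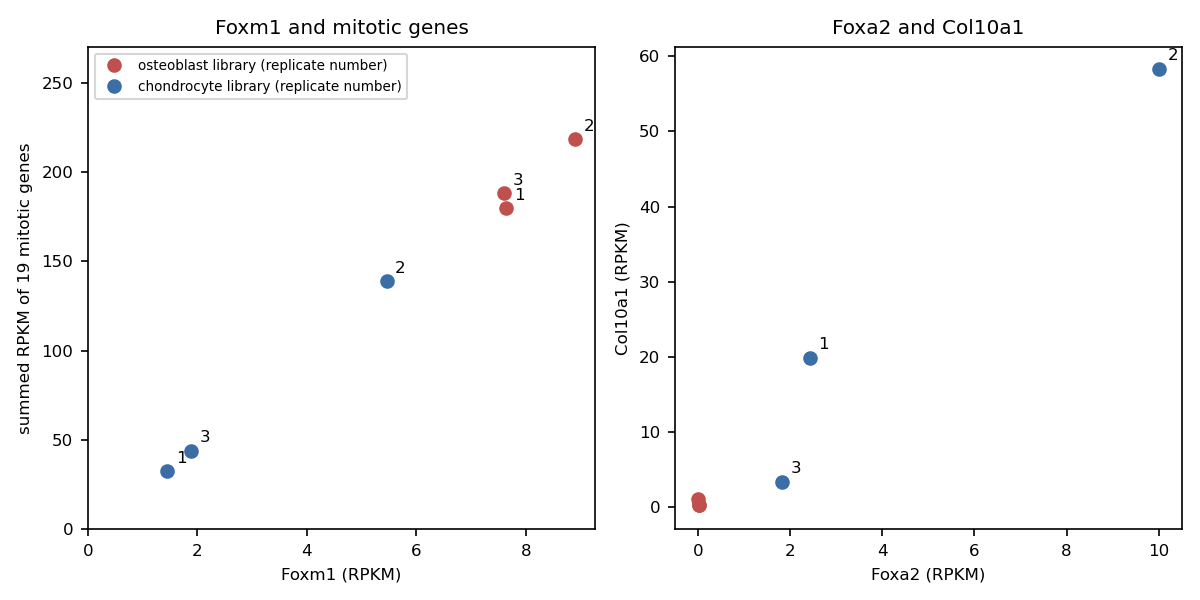
Left, Foxm1 (horizontal axis, RPKM) against the summed RPKM of 19 mitotic genes in each of the 6 libraries. Right, Foxa2 (horizontal axis, RPKM) against Col10a1 (vertical axis, RPKM). Numbers are replicates. Chondrocyte replicate 2 lies apart from the other chondrocytes in both panels, at 5.46 RPKM of Foxm1 and 10.0 RPKM of Foxa2.

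The pair of FoxK factors, nuclear regulators of metabolism and autophagy that carry a forkhead-associated domain, differed in opposite directions. Foxk2 was at 14.3, 15.5 and 14.0 RPKM in osteoblasts and 5.44, 4.62 and 6.80 in chondrocytes. Foxk1 was at 11.9, 10.1 and 10.6 RPKM in osteoblasts and 13.4, 13.6 and 13.0 in chondrocytes. Foxk2 was clearly separated, while the Foxk1 groups lay side by side without overlap. Foxk2 was 2.59-fold higher in osteoblasts (log2 difference 1.24 ± 0.13 SE, limma adjusted p 1.67e-04). Foxk1 was 1.22-fold higher in chondrocytes (-0.27 ± 0.09 SE, limma adjusted p 0.0345). The Foxk1 call was lost without osteoblast replicate 2 or 3 and without chondrocyte replicate 1 or 3, where the limma adjusted p ran from 0.0529 to 0.134.

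In the FoxJ group Foxj3, which acts with Mef2 factors in muscle, was at 7.44, 8.11 and 7.70 RPKM in osteoblasts and 12.4, 10.8 and 13.3 in chondrocytes. All chondrocyte libraries were higher, by 1.57-fold in the mean (log2 difference -0.59 ± 0.10 SE, limma adjusted p 0.00183). Foxj2 was at 6.65, 6.93 and 6.14 RPKM in osteoblasts and 6.57, 4.40 and 7.04 in chondrocytes, which overlap. Its difference of 0.13 was not called (limma adjusted p 0.479), and it was -0.25 under median-of-ratios scaling.

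Foxj1, the switch for motile cilia, was at 0.503, 0.356 and 0.373 RPKM in osteoblasts and 0.173, 0.184 and 0.151 in chondrocytes. With no filter it differed by 0.27 (limma adjusted p 0.00522). Of 18 motile cilium genes known to need Foxj1, 15 were in the table and only Rfx2 and Tekt2 were tested. Rfx2, a ciliary transcription factor, differed by 0.55 (limma adjusted p 0.0247), and the tektin gene Tekt2 by 0.08 (limma adjusted p 0.822). The summed level of the list was 5.48 to 6.30 RPKM in osteoblasts and 3.79 to 7.28 in chondrocytes, which overlap.

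The expressed FoxN factors, repressors linked to cell-cycle checkpoints, were close between the cell types. Foxn2 was at 4.59, 4.65 and 4.13 RPKM in osteoblasts and 3.13, 2.99 and 4.16 in chondrocytes. Foxn3 was at 7.28, 5.59 and 7.04 RPKM in osteoblasts and 7.59, 6.18 and 8.86 in chondrocytes. Both genes overlapped. The differences were 0.31 ± 0.13 for Foxn2 (SE, limma adjusted p 0.0612) and -0.16 ± 0.15 for Foxn3 (limma adjusted p 0.373). Without chondrocyte replicate 3 Foxn2 was called at 0.42 (limma adjusted p 0.0142). Under median-of-ratios scaling Foxn2 was at -0.04 and Foxn3 was called at -0.55 (limma adjusted p 0.00694).

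FoxP factors bind DNA as pairs through a leucine zipper and repress transcription. Foxp2, known for its part in speech circuits and also made in the growth plate, was at 4.40, 4.58 and 3.59 RPKM in osteoblasts and 1.80, 1.26 and 2.82 in chondrocytes. All osteoblast libraries were higher, by 2.14-fold in the mean (log2 difference 0.84 ± 0.20 SE, limma adjusted p 0.00641). Foxp1, which also acts in heart and B cells, was at 5.95, 5.53 and 4.83 RPKM in osteoblasts and 8.46, 5.13 and 10.7 in chondrocytes. Foxp4, known from lung and gut epithelium, was at 17.0, 15.5 and 14.4 RPKM in osteoblasts and 24.0, 13.7 and 27.8 in chondrocytes. For both, chondrocyte replicates 1 and 3 lay above all osteoblasts and replicate 2 fell among or below them. The differences of -0.45 ± 0.23 for Foxp1 and -0.40 ± 0.24 for Foxp4 were not called (SE, limma adjusted p 0.110 and 0.171). Without chondrocyte replicate 2 both were called, at -0.71 and -0.69 (limma adjusted p 0.00104 and 6.06e-04).

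These genes are listed as several transcripts, and no source at hand says how reads were divided among them, so the shares are the deposited estimates. Of the 24 forkhead transcripts that passed the filter, 6 were called higher in osteoblasts, beside 52.2% of all 13162 tested transcripts. Another 12 were called higher in chondrocytes, beside 13.1% of all tested transcripts. Foxp1 transcript NM_001197322 held 77.0 ± 7.25% of the gene's RPKM in osteoblasts and 60.6 ± 7.49% in chondrocytes (SD, n = 3), and NM_053202 held 21.9 ± 6.70% and 36.5 ± 8.73%. Fitted as separate transcripts, NM_053202 of Foxp1 was called higher in chondrocytes at -0.84 (limma adjusted p 0.0431), and NM_001197322 was not, at -0.14 (limma adjusted p 0.504). Foxp4 transcript NM_001110825 held 42.8 ± 2.73% in osteoblasts and 53.9 ± 6.27% in chondrocytes, and NM_028767 held 39.3 ± 1.71% and 32.0 ± 1.61%. Of the Foxp4 transcripts NM_001110825 was called higher in chondrocytes at -0.67 (limma adjusted p 0.0149), while NM_028767 and NM_001110824 were not, at -0.12 and -0.06. The leading Foxp2 transcript NM_053242 held 79.3 ± 7.64% in osteoblasts and 80.8 ± 8.48% in chondrocytes, and it was called higher in osteoblasts at 0.76 (limma adjusted p 0.0212). Whether the shares themselves differ was not tested.

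**Figure D5:**
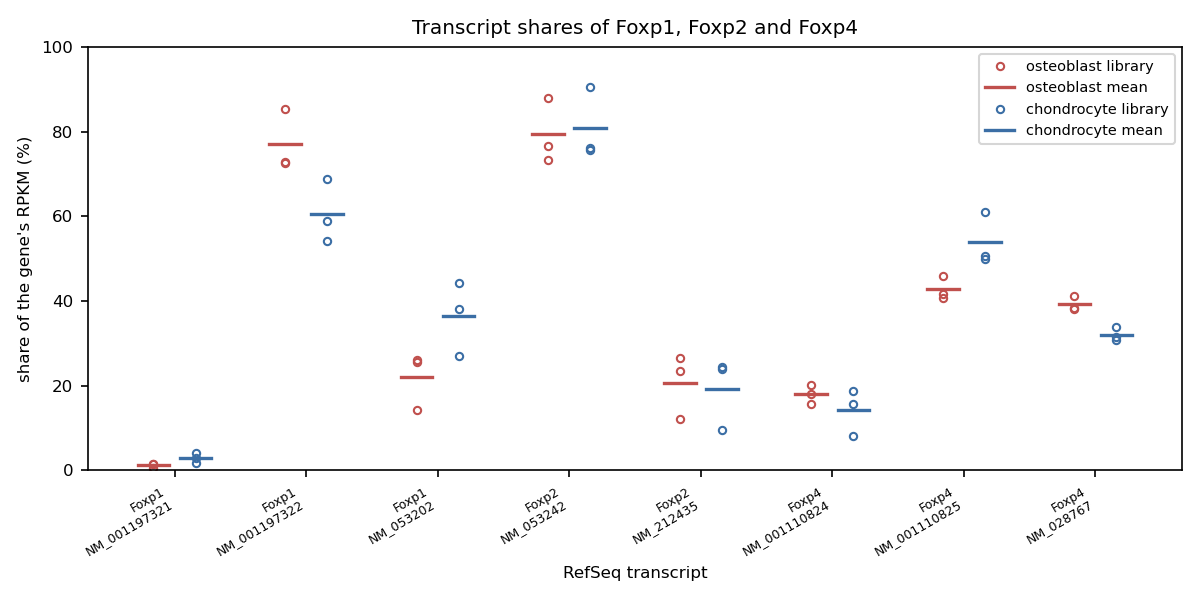
Share of each RefSeq transcript in the summed RPKM of Foxp1, Foxp2 and Foxp4 (vertical axis, percent) in each library, with group means as lines. The NM_053202 share of Foxp1 and the NM_001110825 share of Foxp4 have higher chondrocyte means, and the Foxp2 shares lie at like levels.

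Of 21 genes whose proteins bind forkhead factors all were tested, and 11 were called higher in osteoblasts (52.4%, beside 55.5% of all tested genes) and 2 in chondrocytes (9.52%, beside 13.5%), with a median of 0.27. Both shares were near those of all tested genes. Those counts became 6 and 7 with median-of-ratios scaling, beside 33.6% and 28.3% of all tested genes. Nfatc2, a calcineurin-dependent factor that pairs with FoxP proteins on DNA, was at 7.59 ± 1.63 RPKM in osteoblasts and 41.3 ± 6.63 in chondrocytes (SD, n = 3), with a log2 difference of -2.31 (limma adjusted p 3.05e-05). Dvl3, a Wnt signal carrier that FoxK proteins bring into the nucleus, differed by 1.09 (limma adjusted p 7.25e-04). The chromatin remodeller Chd4 and the corepressor Ctbp1, both bound by FoxP proteins, differed by 1.07 and 1.06 (limma adjusted p 0.00228 and 4.67e-04). Smad4 and Smad3, which join FoxO proteins in TGF-beta signalling, were not called, with differences of 0.18 and -0.11.

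The remaining forkhead genes were near or at the detection limit. The 23 genes under the filter include the 6 with a mean of at least 0.1 RPKM in a cell type, Foxd2, Foxf2, Foxj1, Foxl1, Foxo6 and Foxq1. Another 10 had reads in some library but stayed under 0.1 RPKM in both means, with a highest single value of 0.0376 RPKM. They included Foxa1, Foxb2, Foxd3, Foxd4, Foxe1, Foxe3, Foxi1, Foxp3 and Foxr2. The last 7 were listed without reads in all 6 libraries, namely Foxb1, Foxh1, Foxi2, Foxi3, Foxn1, Foxn4 and Foxr1. Foxn1, the thymic epithelial factor, and Foxh1, the nodal signalling factor, were thus not detectable at this depth. Foxp3, the regulatory T cell factor, reached at most 0.0217 RPKM. Among markers of blood cells Cd3e was at the floor in all libraries, while the 10 markers summed to 12.4 to 15.7 RPKM in osteoblasts and 1.92 to 7.35 in chondrocytes.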

How the data were processed

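Total RNA of 6 libraries was sequenced, and the authors deposited one table of RPKM values per RefSeq transcript with a gene symbol. TopHat2 2.0.8, a spliced aligner, and build mm9 are the names listed in the submitters' processing notes. The counting program, its handling of strand and its division of reads among transcripts and similar genes are not given in the sources used here. Each of the 6 columns was matched to its sample by name. Transcript values were summed by symbol. Read numbers were estimated from the steps between low RPKM values and GENCODE M21 transcript lengths, and 55.5% to 60.3% of low values came within 0.05 reads of a whole number, against 10% by chance. They serve to describe depth and enter no test.

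Genes with at least 1 RPKM in at least 3 libraries were fitted as log2(RPKM + 1) with limma 3.58.1 (R 4.3.3), with trend and robust settings, and p-values were adjusted over all tested genes. Sums by subfamily were compared by exact permutation. The fit was tested on simulated data. Every tested forkhead gene is named. So are those under the filter with a mean of at least 0.1 RPKM or with groups apart, and of each gene list up to 4 called genes of largest difference and up to 2 uncalled genes of highest level. A few items that these rules name are not reported here. The members, gene lists and cell markers were chosen with earlier results of these data known. Alternatives were other pseudocounts, filters, scalings and limma settings, single transcripts, each library left out and the replicate number as a block. Motifs were searched in RefSeq promoters (GRCm38.p6), and no coordinate was converted between builds.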

Additional observations from a re-analysis of the deposited data

How the results depend on the processing

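All tested genes numbered 6224 higher in osteoblasts and 1512 higher in chondrocytes. They became 3765 and 3178 under median-of-ratios scaling, 3706 and 3184 under upper-quartile scaling, and 3597 and 3456 under quantile normalization. With a filter of mean RPKM at least 5 they were 4092 and 885. The forkhead median of -0.40 was -0.82, -0.83 and -0.83 under these scalings, with 5 called higher in osteoblasts and 13 in chondrocytes each time. It was -0.30 with pseudocount 5, -0.0001349 with no filter, -0.27 with the most abundant transcript of each gene, and -0.53 to -0.25 with 1 library left out. Forkhead genes called higher in osteoblasts numbered 10 of 37 with no filter, beside 7519 of all 17938 genes. At a mean RPKM of at least 5 they numbered 3 of 14, beside 4092 of all 6911 genes. Those higher in chondrocytes numbered 11 and 7 in these settings, beside 1968 and 885 of all genes.

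Under median-of-ratios, upper-quartile and quantile scaling FoxO regulators gave 5, 5 and 6 calls higher in osteoblasts and 13 in chondrocytes each time. FoxO targets gave 4 calls in osteoblasts each time, and 5 at the mean RPKM of at least 5. Mitotic genes gave 5 each time, and 7 to 19 with 1 library left out, beside 5300 to 6319 of all 11218 tested genes. The Foxj1 cilium list gave 0 under the 3 scalings and the stricter filter, 3 with no filter and 0 to 1 with 1 library left out. Forkhead partners gave 6 calls in osteoblasts under median-of-ratios and upper-quartile scaling, 7, 7 and 8 in chondrocytes under the 3 scalings, and 4 as single transcripts. Sclerotome regulators gave 4 in osteoblasts with no filter, 1 to 2 with 1 library left out, and 8 in chondrocytes as single transcripts. These list counts and the subfamily ratios were added after seeing the data.

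Foxj2 reversed to -0.25, -0.25 and -0.27 under the scalings and ranged from -0.044 to 0.24 with 1 library left out, negative without chondrocyte replicate 2. Foxn2 reversed to -0.045, -0.049 and -0.092 under the scalings. The log2 ratio of the Foxk sums reversed to -0.023 and -0.027, and that of the Foxn sums to -0.42 and -0.43 under median-of-ratios and upper-quartile scaling. With 1 library left out the Foxn ratio ranged from -0.098 to 0.16, negative without osteoblast replicate 1, chondrocyte replicate 1 or chondrocyte replicate 2. Foxm1 lost its call under all 3 scalings. The cause of these shifts was not tested.

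Deviations of same-numbered libraries from their group means had correlations of 0.079, 0.0096 and -0.155 across genes, so they did not vary together. These values cannot show whether same-numbered libraries were prepared together, and the labels do not say. With the replicate number as a block 6 forkhead genes were called higher in osteoblasts and 9 in chondrocytes, with Foxk1 lost (limma adjusted p 0.0907). Depth limits genes under about 0.1 RPKM, where a value rests on a few reads.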
